A study of Mus musculus with 4 samples.

Results

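Liver sinusoidal endothelial cells line the capillaries of the liver, and 9 genes that mark them or that all endothelial cells share are described here in liver of C57BL/6 mice on a steatohepatitis diet. The genes were taken by symbol as a list written with earlier results of these data known, and all 9 were found among the 24346 symbols of each library. They comprise Stab2, Lyve1, Clec4g, Oit3 and Gpr182, whose expression in liver is largely sinusoidal endothelial, and Kdr, Tek, Pecam1 and Cdh5, which endothelial cells in general express. RNA sequencing was performed on 4 libraries of whole liver. The control group (2 libraries) came from male wild type animals that received for 3 weeks a diet rich in fat, cholesterol and sucrose with added bile salt (NASH diet). The 7KC group (2 libraries) came from mice fed the NASH diet containing 7-ketocholesterol (7KC), an oxidized derivative of cholesterol, for the same 3 weeks. Both groups were young adults when the diets began, both received the diet that induces steatohepatitis, and no group on an ordinary diet was analysed here. The labels do not say that each library is a separate animal, so p-values measure the spread between these samples, which may in part be technical.

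Sinusoidal endothelial cells are perforated by fenestrae and lack the continuous basement membrane of other capillaries, which lets plasma reach the hepatocytes. They are among the most active scavenger cells of the body and clear hyaluronan, modified lipoproteins and immune complexes from blood through endocytic receptors. During chronic liver injury they can lose fenestrae and scavenger receptors and gain features of continuous capillaries, a change called capillarization.

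Expression was given as FPKM, the fragments mapped to a gene scaled to the length of its exons and to the total mapped from that library, so levels can be compared between genes. Depth, as estimated from the spacing of low FPKM values, was about 13500000 to 16900000 mapped reads per library. At that depth the 9 genes were supported by approximately 149 reads (Tek in 7KC replicate 1) to 1347 reads (Stab2 in control replicate 2), and counting error alone amounts to 8.19% and 2.72% of those values (coefficient of variation). The labelled tissue showed its defining markers: albumin (Alb) was at 18988 to 41547 FPKM in the 4 libraries. Each of the 9 endothelial genes was at 2.48 FPKM or more in every library. Of the 5 lymphatic endothelial markers, Prox1, which hepatocytes also express, was at 12.3 to 21.7 FPKM, Flt4 at 5.76 to 8.84 FPKM, Ccl21a at 2.89 to 8.70 FPKM, and Pdpn and Mmrn1 did not exceed 0.408 and 0.601 FPKM. Flt4 is also in the VEGF list described below, and which cells set the levels of these markers was not tested.

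The 9 genes did not separate the diets. None passed the threshold of limma (adjusted p under 0.05, Benjamini-Hochberg over 12299 genes tested), where 0.504% of all genes tested passed, and none had an unadjusted p under 0.05 (the smallest was 0.175), where 17.8% of all genes had one. In none of the 9 did the libraries of the groups lie apart, whereas 52.5% of all genes tested had no overlap between groups in either direction. Of the 12299 genes tested, 3085 were higher and 3366 lower in the 7KC group without overlap. Log2 changes, which are differences in log2(FPKM + 0.5) of 7KC minus control, ran from -0.36 to 0.17 with a median of -0.03, beside a median of -0.03 over all genes tested. With 2 libraries against 2, an exact permutation test of a single gene cannot give a 2-sided p below 0.333, so only the fit across all genes could give a call. What the 9 genes did show was a difference between libraries of the same group, as described gene by gene.

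**Figure D1:**
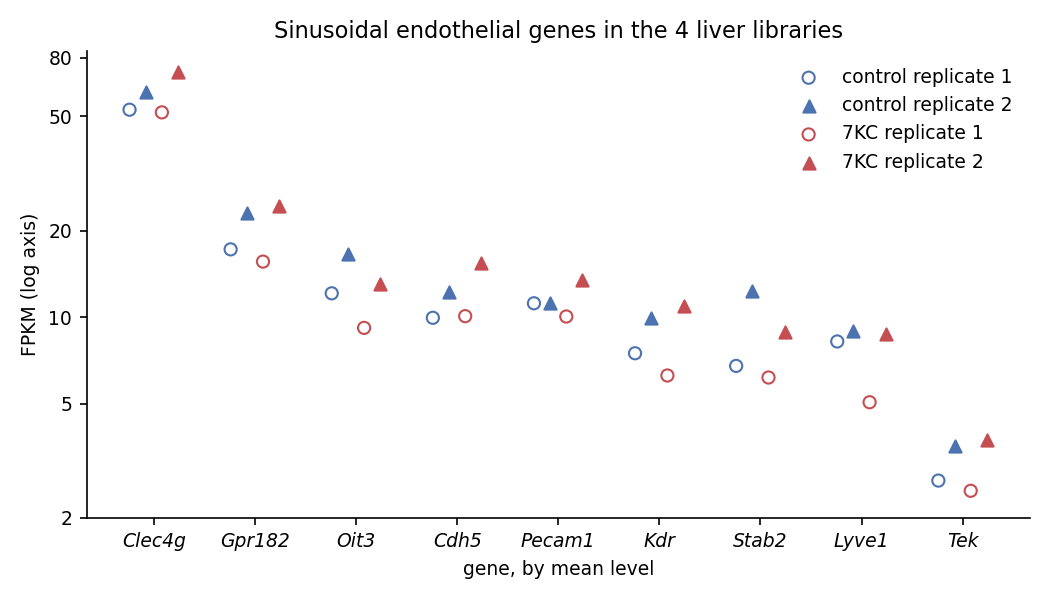
FPKM (log axis) of the 9 sinusoidal endothelial genes in the 4 libraries, with open circles for replicate 1, filled triangles for replicate 2, blue for control and red for 7KC. The triangles sit above the circles of their own group in 8 of 9 genes, and colours do not separate in any gene.

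RefSeq promoters (build GRCm38.p6) were found for 4 of the 9 genes. They run from 250 bases before to 50 after the RefSeq start, which for Stab2 and Kdr differs from the gene coordinates given below. These promoters are shown to let their letters be compared: Stab2, Clec4g, Kdr and Tek. Each is printed 5′ to 3′ on the strand of its gene, and capitals mark the letters CAGGAA on either strand, a form bound by ETS factors, and AGATAA on either strand, a form bound by GATA factors. The search found no position where both overlapped.
Stab2 (chr10:87007893-87008192, minus strand): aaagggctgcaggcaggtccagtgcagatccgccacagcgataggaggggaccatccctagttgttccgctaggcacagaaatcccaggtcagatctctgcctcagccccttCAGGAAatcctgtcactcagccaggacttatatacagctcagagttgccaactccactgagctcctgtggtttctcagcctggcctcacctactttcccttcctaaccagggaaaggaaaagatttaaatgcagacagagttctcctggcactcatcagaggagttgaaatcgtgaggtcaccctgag
Clec4g (chr8:3720602-3720901, minus strand): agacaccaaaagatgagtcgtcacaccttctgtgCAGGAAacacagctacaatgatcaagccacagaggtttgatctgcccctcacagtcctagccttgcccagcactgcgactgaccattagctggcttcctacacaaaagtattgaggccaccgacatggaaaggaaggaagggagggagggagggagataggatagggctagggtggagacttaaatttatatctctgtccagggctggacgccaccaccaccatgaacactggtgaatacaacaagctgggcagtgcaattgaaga
Kdr (chr5:75978406-75978705, minus strand): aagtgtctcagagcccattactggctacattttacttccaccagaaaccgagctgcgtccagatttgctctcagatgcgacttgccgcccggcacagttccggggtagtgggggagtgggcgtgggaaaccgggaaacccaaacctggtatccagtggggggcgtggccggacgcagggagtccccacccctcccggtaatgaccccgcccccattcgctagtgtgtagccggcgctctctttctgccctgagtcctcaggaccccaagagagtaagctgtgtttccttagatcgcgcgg
Tek (chr4:94739039-94739338, plus strand): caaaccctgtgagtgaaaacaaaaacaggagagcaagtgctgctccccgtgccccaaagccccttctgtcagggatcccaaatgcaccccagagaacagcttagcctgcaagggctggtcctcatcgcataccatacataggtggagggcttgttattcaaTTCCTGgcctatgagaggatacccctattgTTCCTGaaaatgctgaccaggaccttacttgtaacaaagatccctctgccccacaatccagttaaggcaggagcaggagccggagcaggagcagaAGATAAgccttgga

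The ETS letters were in 3 of these 4 promoters (Stab2, Clec4g and Tek) and in 30.6% of 32851 promoters of the same length. The GATA letters were in that of Tek alone, close to its 3′ end, and in 11.2% of all promoters. A match describes the letters of the window and is not a binding site, and these data hold no measurement of binding.

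The scavenger and lectin receptors were examined first. Stab2 encodes stabilin-2, which takes up hyaluronan and other ligands from blood. The gene lies on chromosome 10 at 86841198 to 87008025 (minus strand, GRCm38) and its longest annotated transcript has 69 exons. It overlaps several genes annotated on the opposite strand, among them the antisense gene Gm16268. Stab2 was at 6.76 and 12.3 FPKM in control replicates 1 and 2 and at 6.16 and 8.85 FPKM in 7KC replicates 1 and 2. Control replicate 2 stood above the other libraries, and the groups overlapped because 7KC replicate 2 lay above control replicate 1. The means were 9.55 ± 3.94 FPKM and 7.51 ± 1.90 FPKM (SD, n = 2 each), with a log2 change of -0.29 (SE 0.31, 95% interval -1.08 to 0.50, limma adjusted p 0.664). The 2 control libraries alone differed by 0.82 on the same log2 scale, the widest gap between replicates among the 9 genes.

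Lyve1, a hyaluronan receptor of lymphatic vessels that liver sinusoids share, lies on chromosome 7 at 110850607 to 110863239 (minus strand). It was at 8.23 and 8.97 FPKM (control) against 5.05 and 8.71 FPKM (7KC). The lowest value belonged to 7KC replicate 1 and the other 3 libraries lay close together. The log2 change was -0.35 (SE 0.25, 95% interval -0.99 to 0.29, limma adjusted p 0.514), and it was 0.02 without 7KC replicate 1.

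Clec4g, a C-type lectin also called LSECtin, was the most abundant of the 9 genes. It lies on chromosome 8 at 3707064 to 3720651 (minus strand) and overlaps the antisense gene Gm16553 on the opposite strand. Its level was 52.8 and 60.8 FPKM (control) against 51.6 and 71.6 FPKM (7KC). The 7KC libraries were both the lowest and the highest, enclosing the control group. The log2 change was 0.10 (SE 0.19, 95% interval -0.37 to 0.58, limma adjusted p 0.812).

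Oit3, a zona pellucida domain protein, lies on chromosome 10 at 59422958 to 59441778 (minus strand). It was at 12.1 and 16.6 FPKM (control) against 9.17 and 13.1 FPKM (7KC). Each 7KC library lay below the control library of the same replicate number, yet 7KC replicate 2 exceeded control replicate 1, so the groups overlapped. This gene had the lowest log2 change of the 9, -0.36 (SE 0.23, 95% interval -0.93 to 0.22, limma adjusted p 0.460), and it alone kept a negative sign under every alternative that was run.

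Gpr182, an atypical chemokine receptor that removes ligands such as Cxcl10, Cxcl12 and Cxcl13 without classical signaling, lies on chromosome 10 at 127747276 to 127751732 (minus strand) and overlaps Zbtb39 on the opposite strand. It was at 17.2 and 23.0 FPKM (control) against 15.6 and 24.3 FPKM (7KC). Again the 7KC libraries enclosed the control libraries. The means of 20.1 ± 4.06 and 19.95 ± 6.14 FPKM (SD, n = 2 each) gave a log2 change of -0.03 (SE 0.25, 95% interval -0.66 to 0.61, limma adjusted p 0.963).

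Next, the growth factor receptors were examined. Kdr encodes VEGF receptor 2, the main signaling receptor for VEGF-A on endothelium, and lies on chromosome 5 at 75932827 to 75978458 (minus strand). It was at 7.48 and 9.90 FPKM (control) against 6.26 and 10.9 FPKM (7KC). The log2 change was -0.05 (SE 0.28, 95% interval -0.77 to 0.67, limma adjusted p 0.941). Within the 7KC group the libraries differed by 0.76 on the log2 scale, the widest gap of that group.

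Tek encodes TIE2, the receptor for angiopoietins that keeps vessels quiescent, and lies on chromosome 4 at 94739289 to 94874976 (plus strand). It had the lowest level of the 9 genes, with 2.70 and 3.57 FPKM (control) against 2.48 and 3.73 FPKM (7KC). Both replicate 2 libraries were above both replicate 1 libraries. The log2 change was -0.02 (SE 0.23, 95% interval -0.60 to 0.55, limma adjusted p 0.969).

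The adhesion and junction genes were examined last. Pecam1 encodes CD31, an adhesion molecule at endothelial cell contacts that platelets and many leukocytes also carry, and lies on chromosome 11 at 106654217 to 106750628 (minus strand). It was at 11.2 FPKM in both control libraries and at 10.1 and 13.4 FPKM in the 7KC libraries, with a log2 change of 0.06 (SE 0.16, 95% interval -0.36 to 0.47, limma adjusted p 0.889). Pecam1 was the only one of the 9 genes in which control replicate 2 was not above control replicate 1. Cdh5 encodes VE-cadherin, which holds endothelial cells together at adherens junctions, and lies on chromosome 8 at 104101625 to 104144511 (plus strand), overlapping the antisense gene Gm29682. It was at 9.95 and 12.3 FPKM (control) against 10.1 and 15.4 FPKM (7KC). The log2 change of Cdh5, 0.17 (SE 0.23, 95% interval -0.41 to 0.74, limma adjusted p 0.737), was the highest of the 9 and its libraries overlapped between groups.

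In order of mean FPKM the genes were Clec4g, Gpr182, Oit3, Cdh5, Pecam1, Kdr, Stab2, Lyve1 and Tek. Clec4g was above every other gene in all libraries, its lowest value (51.6 FPKM) exceeding the highest of Gpr182 (24.3 FPKM). Tek was below all others, its highest value (3.73 FPKM) lying under the lowest of Lyve1 (5.05 FPKM). The neighbours between these extremes had ranges that overlapped over the 4 libraries. Within libraries, Gpr182 was above Oit3 and Pecam1 above Kdr in all 4, whereas Oit3 and Cdh5, Cdh5 and Pecam1, Kdr and Stab2, and Stab2 and Lyve1 changed places in at least 1 library.

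The replicates of each group differed in the same direction in most of these genes. In 8 of 9 genes replicate 2 was above replicate 1 in both groups, against 21.2% of all genes tested. In 6 of 9 genes it was at least 1.2 times as high in both groups, against 3.79% of all genes tested. The median gap (replicate 2 minus replicate 1, log2 scale) of the 9 genes was 0.35 in the control group and 0.50 in the 7KC group, beside -0.02 and -0.01 over all genes tested. The 9 genes share their libraries and the cell type that expresses them, so these counts describe the libraries and are not independent observations. Replicate numbers name samples and carry no order, and nothing in the labels ties control replicate 2 to 7KC replicate 2. Over the 8 Kupffer cell markers replicate 2 was above replicate 1 in both groups in 6, with median gaps of 0.10 and 0.51. Over the 8 hepatocyte markers it was below in both groups in 3 and above in both in 0. The part of other cells in the endothelial gaps was not tested. Single libraries set the direction: the median log2 change of the 9 genes was -0.34 without 7KC replicate 2 and 0.26 without 7KC replicate 1, and 8 and 6 of the 9 genes then had no overlap between groups, where 71.2% and 78.7% of all genes tested had none. Without control replicate 1 it was 3 of 9 (78.6% of all genes) and without control replicate 2 it was 1 of 9 (76.3%).

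**Figure D2:**
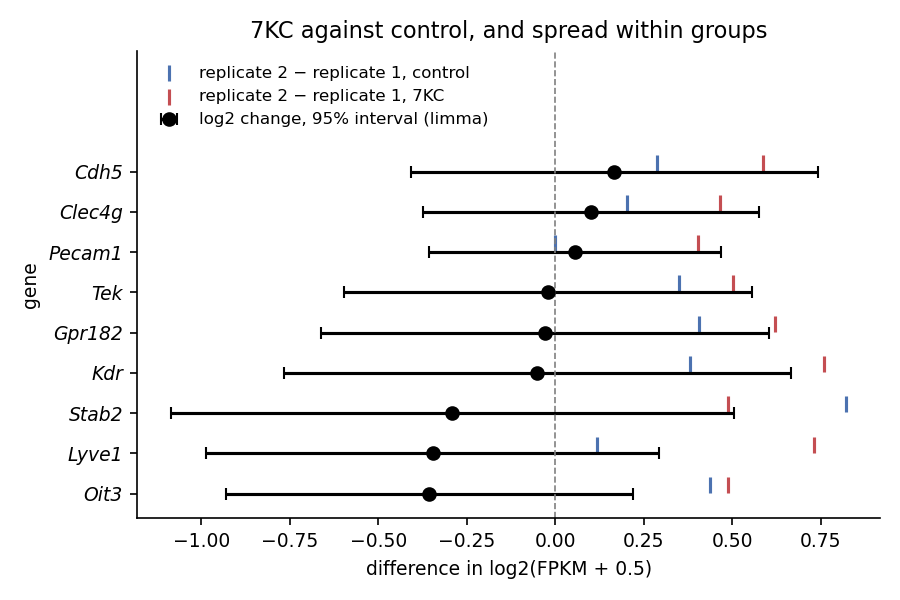
Log2 change (7KC minus control, black points) with its 95% interval from limma for each of the 9 genes, and the difference between the replicates of each group (blue tick control, red tick 7KC), all in log2(FPKM + 0.5). Every interval includes 0, and the red ticks lie between 0.40 and 0.76.

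Summed over the 9 genes, the level was 128 and 159 FPKM (control) against 117 and 170 FPKM (7KC). The highest and lowest sums were thus both in the 7KC group. In bulk liver, fewer endothelial cells and less endothelial RNA per cell cannot be told apart. Clec4g made up 41.1% and 38.4% of the sum (control) against 44.3% and 42.1% (7KC), and Tek 2.10% to 2.25% in all 4. As shares of the sum, Oit3 was at 9.43% and 10.4% (control) against 7.87% and 7.69% (7KC), and Lyve1 at 6.41% and 5.66% against 4.34% and 5.13%. Cdh5 was at 7.75% and 7.73% in the control libraries against 8.65% and 9.05%. For Oit3, Lyve1, Cdh5 and Clec4g the shares did not overlap between groups, and for the other 5 genes they did. These shares have no counterpart over all genes, and in FPKM 52.5% of all genes tested had no overlap. The count was therefore not read as a result of the diet. Shares of 1 sum depend on each other, and Clec4g weighs most in them. When all libraries were instead rescaled to the same geometric mean of the 9 genes, a setting chosen after seeing the data, Oit3 and Lyve1 had log2 changes of -0.27 and -0.26 and Cdh5 and Clec4g of 0.25 and 0.19. The median over all genes was then 0.06, and 6 of the 9 genes had no overlap between groups, against 21.7% of all genes. Scaling on the 9 genes itself narrows their gaps within groups. The limma adjusted p of all 9 was 0.9998, from a fit that took the spread of each gene from the trend over all genes and not from its own libraries.

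The genes whose profile over the 4 libraries lay nearest to the median profile of the 9 were, by the largest absolute difference in centred log2 level, Gadd45a (0.03), Eng (0.06) and Gpihbp1 (0.07). This search covered genes outside the lists whose mean reached 5 FPKM, and 8 of 7173 genes of that level, members of the lists included, were within 0.1. Eng, endoglin, a co-receptor for TGF-beta family ligands on endothelium, was at 26.1 and 32.5 FPKM (control) against 23.5 and 32.4 FPKM (7KC). Gpihbp1, which carries lipoprotein lipase across capillary endothelium, was at 22.8, 27.2, 19.4 and 30.0 FPKM in the same order. Gadd45a, a gene of the growth arrest and DNA damage response, was at 4.53, 5.90, 3.87 and 6.12 FPKM. The likeness rests on 4 libraries.

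Other genes of the sinusoidal endothelium were then read from a list of 12. All 12 were tested, none passed, and 2 had an unadjusted p under 0.05, a share near the 17.8% of all genes. The median log2 change was 0.10. In 3 genes both 7KC libraries were above both control libraries and in none below (3085 and 3366 of 12299 over all genes tested). These 3 were Dnase1l3, a secreted nuclease, with 15.4 and 19.99 FPKM (control) against 29.2 and 29.6 FPKM (7KC) (log2 change 0.73, SE 0.15, limma adjusted p 0.102), Fcgr2b, the inhibitory Fc-gamma receptor, and Clec1b. Fcgr2b was at 32.5 and 36.1 FPKM against 40.8 and 61.8 FPKM (log2 change 0.55, SE 0.21, limma adjusted p 0.278). Clec1b was at 13.0 and 13.6 FPKM against 14.1 and 27.5 FPKM (log2 change 0.55, SE 0.31, limma adjusted p 0.403). Dendritic cells, macrophages and B cells can also express some of these genes. As in the 9 genes, replicate 2 was above replicate 1 in both groups in 10 of the 12, with median gaps of 0.17 and 0.60 on the log2 scale.

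**Figure D3:**
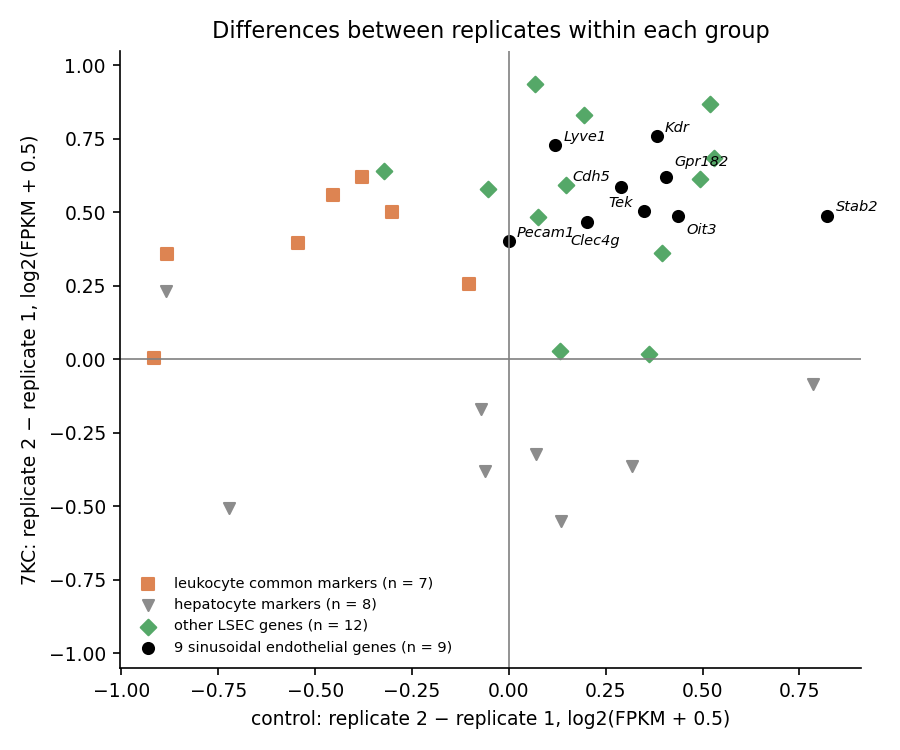
Difference between replicates (replicate 2 minus replicate 1, log2(FPKM + 0.5)) in the control group (horizontal) against the 7KC group (vertical), 1 point per gene. The 9 sinusoidal endothelial genes (black) lie in the upper right quadrant or on its edge, the 7 leukocyte markers (orange) all to the left of 0, and 7 of the 8 hepatocyte markers (grey) below 0 on the vertical axis.

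The VEGF and angiopoietin system around Kdr and Tek had 14 listed genes, of which 12 were tested and none passed. The list had a median log2 change of 0.07. In it 3 genes were higher without overlap (3085 of 12299 over all genes tested), the co-receptors Nrp2 and Nrp1 and the ligand Vegfc. Nrp2 was at 3.43 and 3.07 FPKM (control) against 5.21 and 7.16 FPKM (7KC) (log2 change 0.82, SE 0.18, limma adjusted p 0.112). Nrp1 was at 12.2 and 12.7 FPKM against 15.6 and 16.9 FPKM (log2 change 0.37, SE 0.11, limma adjusted p 0.192). The main ligand Vegfa was at 41.8 and 35.3 FPKM (control) against 36.5 and 31.4 FPKM (7KC), and these overlapped. The ligands Pgf and Angpt1 were below the filter.

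The ligands of Gpr182 differed from one another. Cxcl10, an interferon-induced chemokine, was at 12.4 and 9.49 FPKM (control) against 79.8 and 42.5 FPKM (7KC) (log2 change 2.37, SE 0.32, limma adjusted p 0.0534). Cxcl12, a homeostatic chemokine, was at 126 and 108 FPKM against 91.2 and 81.2 FPKM (log2 change -0.44, SE 0.14, limma adjusted p 0.203). Cxcl13, a B cell chemokine, was at 14.3 and 6.06 FPKM against 6.04 and 7.97 FPKM. None of the 3 ligands passed the threshold, Cxcl10 and Cxcl12 were without overlap in opposite directions, and Cxcl13 and the receptor itself overlapped.

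In the endothelial activation list 8 of 10 genes were tested, and 1, Icam1, rose past the threshold. Icam1, a receptor for leukocyte integrins that hepatocytes and leukocytes can also express, was at 14.2 and 12.3 FPKM (control) against 36.1 and 31.7 FPKM (7KC) (log2 change 1.32, SE 0.13, limma adjusted p 0.0340). This call was lost in 7 of 13 alternatives, with an adjusted p of 0.0734 when control replicate 2 was left out, and of 0.146 and 0.204 when 7KC replicate 1 or 2 was. Procr, the endothelial protein C receptor, was at 6.51 and 4.18 FPKM against 28.7 and 21.1 FPKM (log2 change 2.13, SE 0.25, limma adjusted p 0.0512), and it passed in 5 of 13 alternatives. Of the 8 tested genes, 6 were higher and 1, Edn1, lower without overlap (3085 and 3366 of 12299 over all genes tested). The median log2 change was 1.003. Vcam1 was at 20.8 and 22.3 FPKM (control) against 29.9 and 55.7 FPKM (7KC) (adjusted p 0.215 by limma). The selectin Sele did not exceed 0.266 FPKM.

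No gene passed in the lists of junctions, transcription factors, angiocrine signals, continuous vessels and hyaluronan metabolism. Over all genes tested, 3085 of 12299 were higher and 3366 lower without overlap. Of 12 junction genes 11 were tested, with a median log2 change near 0 (-0.003) and 1 higher and 4 lower without overlap. The higher one was F11r and the lower ones were Tjp1, Cd99l2, Ctnnb1 and Jup. The other tested junction genes, among them Cldn5 and Esam, overlapped. Which liver cells set the levels of these junction genes was not tested. Of 12 transcription factors 11 were tested, with a median of 0.16 and 4 higher and 1 lower without overlap. Among the higher, Ets1 was at 7.12 and 6.85 FPKM (control) against 8.70 and 11.4 FPKM (7KC). The lower one, Erg, was at 3.46 and 3.19 FPKM (control) against 3.15 and 3.02 FPKM (7KC). Gata4, a factor of sinusoidal identity, was at 5.63, 6.21, 5.67 and 5.79 FPKM in control replicates 1 and 2 and 7KC replicates 1 and 2. The 12 angiocrine and zonation genes had a median of -0.17, with 2 higher and 3 lower without overlap, and the central vein signal Rspo3 was at 2.34 and 3.32 FPKM against 2.19 and 2.31 FPKM. Among 12 genes of continuous vessels and their basement membrane, often read as signs of capillarization, the median was 0.15. Without overlap, 3 were higher, a share near that over all genes, and none lower. These were Col4a2, Col4a1 and Plvap, and Col4a2 was at 7.39 and 6.96 FPKM (control) against 8.43 and 12.9 FPKM (7KC) (log2 change 0.51, SE 0.21, limma adjusted p 0.296). The continuous vessel markers Cd34 and Vwf overlapped between groups. Of 9 hyaluronan genes 5 were tested, with a median of -0.04. Hmmr, which dividing cells express, and Cd44 were higher without overlap. Cd44, the hyaluronan receptor of leukocytes, was at 9.85 and 7.73 FPKM against 15.4 and 19.0 FPKM (log2 change 0.93, SE 0.17, limma adjusted p 0.0813).

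Markers of other liver cells were read from the same libraries. Over all genes tested, 3085 of 12299 were higher and 3366 lower without overlap. All 7 leukocyte markers were higher in the 7KC group without overlap, among them the integrin subunit Itgb2 (16.8 and 12.1 FPKM against 36.2 and 53.6 FPKM), with a median log2 change of 1.31 and summed levels of 183 to 283 FPKM in the control and 539 to 617 FPKM in the 7KC libraries, and none passed the threshold. Cd52 was the largest part of the leukocyte sums (151 and 79.7 FPKM against 314 and 314 FPKM). Among 8 monocyte and recruited macrophage markers 5 were higher without overlap (median 1.53), with sums of 344 to 590 FPKM against 1100 to 1732 FPKM. Most of those sums came from Lyz2 (538 and 321 FPKM against 995 and 1583 FPKM). The 8 Kupffer cell markers had a median of 0.69 with 4 higher and 1 lower without overlap, and sums of 350 to 358 FPKM against 416 to 635 FPKM. The 8 hepatocyte markers had a median of -0.52 with 7 lower without overlap, and their sum was 68796 and 58131 FPKM (control) against 49228 and 36854 FPKM (7KC). The 8 stellate cell markers had a median of -0.20 with 4 lower without overlap (sums 205 and 213 FPKM against 153 and 186 FPKM). Most of the stellate sums came from Dcn (140 and 147 FPKM against 101 and 124 FPKM). Platelet markers summed to 5.02 to 7.48 FPKM in all libraries (4 of 6 tested, median -0.02), and lymphatic markers had 3 of 5 tested (median 0.23). Cholangiocyte markers had 5 of 6 tested (median 0.26) and sums of 89.7 and 58.3 FPKM against 168 and 369 FPKM, most of it from Spp1, which macrophages also express (85.6 and 54.1 FPKM against 165 and 363 FPKM). None of these genes passed. Pecam1 and Lyve1 can also be expressed by leukocytes, and the part of leukocyte RNA in their values was not tested. FPKM is relative to all mapped fragments, so the share taken by hepatocyte transcripts enters every endothelial value, and its part was not tested either.

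**Figure D4:**
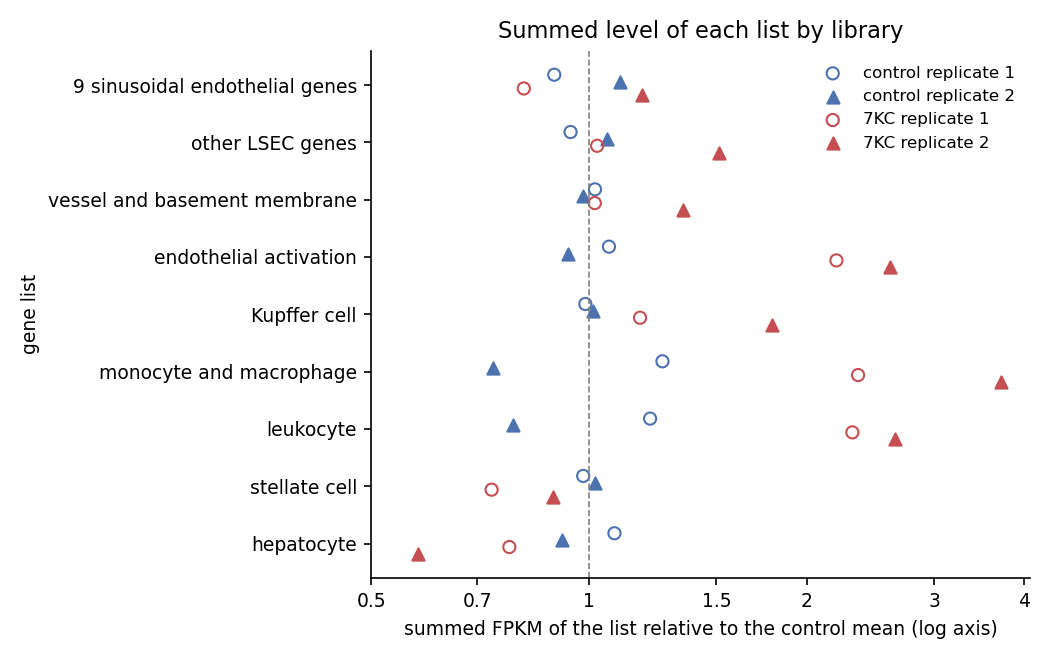
Summed FPKM of each gene list in the 4 libraries relative to the mean of the control libraries (log axis, symbols as in the plot of the 9 genes by library). The 9 sinusoidal endothelial genes spread from 0.812 to 1.19 with the 7KC libraries at both ends, whereas the leukocyte list lies at 2.31 and 2.65 in the 7KC libraries.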

How the data were processed

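RNA sequencing was analysed from 4 liver libraries, 2 per group, grouped by the sample titles. Stranded mRNA libraries were sequenced as single-end reads and mapped to mm10 with TopHat2 2.1.1 and Bowtie2 2.2.8 per the submitters' processing notes (SAMtools 0.1.18 and Cuffdiff 2.2.1 are also named there). FPKM was calculated by the authors with Cufflinks and deposited with a single value for each symbol in a library. The annotation and the settings for strand and multi-mapped reads were not given in the sources used here, so genes with an opposite-strand partner are uncertain.

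Genes whose mean reached 0.5 FPKM were tested as log2(FPKM + 0.5) with limma 3.58.1 in R 4.3.3 (trended prior, group as the only term, Benjamini-Hochberg over 12299 genes, 2 residual and 3.27 prior degrees of freedom). The log2 change understates differences of low genes. Intervals are 95% intervals of the fit. The fit was tested on simulated data. Depth was estimated from single-transcript genes of GENCODE (GRCm38, the build of mm10) with a fragment length of 200 bases: 63.1% to 67.7% of values of up to 10 reads were then within 0.1 of whole reads. Reads were used only to describe depth.

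The members and the 17 other lists (150 genes, 1 under an older symbol) were chosen with earlier results of these data known. Named genes were the 9 members, the 3 of nearest profile and, drawn from each list, those past the threshold, up to 3 per direction with the largest non-overlapping differences and the most abundant. Pdpn, Mmrn1, Ccl21a, Flt4, Gata4, Cd34, Vwf, Sele, Selplg, Jup, Cldn5, Esam, Pgf, Angpt1 and Cxcl13 were named after their values were seen. The alternatives covered pseudocount, filter, prior, scaling, replicate block and leaving out each library. Same-numbered libraries were not treated as pairs.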

Additional observations from a re-analysis of the deposited data

How the results depend on the processing

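None of the 9 genes passed the threshold under any of the alternatives, and over 117 log2 changes of single members the limma adjusted p ran from 0.218 to 0.9999. Of these 117 values, 100 kept their direction and 17 were reversed, of which 6 came under the next 2 scalings, which shift all genes alike. Scaling to the same sum gave a median of 0.16 over all genes (log2 scale), and beside that shift Kdr was at 0.14, Tek at 0.16 and Gpr182 at 0.17. Scaling to the geometric mean of the members, chosen after seeing the data, gave 0.0340, 0.0561 and 0.0609 in the same order (0.06 over all genes) and 6 members without overlap (21.7% of all genes). That scaling itself narrows the gaps of the members within groups, so the members and all genes are not on a like footing there. Leaving out single libraries gave ranges of -0.70 to 0.12 for Stab2, -0.71 to 0.02 for Lyve1, -0.13 to 0.33 for Clec4g, -0.60 to -0.11 for Oit3, -0.43 to 0.33 for Kdr, -0.15 to 0.26 for Pecam1, -0.13 to 0.46 for Cdh5, -0.27 to 0.23 for Tek and -0.34 to 0.28 for Gpr182, with 0 members past the threshold throughout, -0.34 to 0.26 for their median and 1 to 8 members without overlap (71.2% to 78.7% of all genes). The reversals came from leaving out control replicate 2 (Stab2 0.12, Kdr 0.14, Tek 0.15, Gpr182 0.17), 7KC replicate 1 (Lyve1 0.0188, Kdr 0.33, Tek 0.23, Gpr182 0.28) and 7KC replicate 2 (Clec4g -0.13, Pecam1 -0.15, Cdh5 -0.13). A left-out library leaves 1 sample in its group, which is assumed to vary like the others.

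Over all genes the count past the threshold, 62 as reported (59 higher, 3 lower), was 115 with a pseudocount of 1, 1 without the filter, 40 without the trend, 98 with median ratio scaling, 405 with the same sum, 320 with the geometric mean of the members and 4 to 458 with single libraries left out (4 without 7KC replicate 2, 5 without 7KC replicate 1, 458 without control replicate 1). Differences between replicates correlated at -0.14 across 12299 genes between the groups, so the numbers were not read as pairs. With the replicate block 0 genes passed in limma (1851 at an unadjusted p under 0.05), no member call changed and Icam1 was lost (adjusted p 0.151), and with the crossed replicate block, added after seeing the data, 588 passed. The cause of these shifts was not tested. With 2 libraries per group, the intervals of the members span changes as large as -1.08 and 0.74 on the log2 scale. Differences within these intervals were not excluded. The intervals are not adjusted for the 12299 genes, so their ends are not the limit of what the threshold could detect. As reported, Procr and Cxcl10 did not pass at larger log2 changes of 2.13 (SE 0.25) and 2.37 (SE 0.32). Icam1 passed at 1.32 with a smaller SE of 0.13. The smallest change of a member that would pass was not tested.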
